A study of Mus musculus with 9 samples.

Results

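The genes described here encode the alpha chains of the collagens. They were chosen by symbol (Col, a type number, the letter a and a chain number), which 44 of the 55536 genes in the deposited tables match. At least 10 counts summed over the 9 libraries were required, which kept 43. Col6a4 with 12 counts and Col2a1 with 17 lay just inside that limit, and Col10a1, the network-forming collagen of growth cartilage, lay outside it with 3. The kept genes were grouped as 11 fibrillar chains, 6 basement membrane chains, 6 microfibrillar chains, 9 chains of fibril-associated collagens with interrupted helices (FACIT) and 11 other chains. Muscle of male ICR mice, an outbred stock, was sequenced as total RNA in 3 groups of 3 libraries. The aged GW8510 group (libraries 1, 3 and 4) was 18 months old and received GW8510 at 2 mg/kg intraperitoneally, daily for 14 days, in sodium carboxymethylcellulose. The aged vehicle group (libraries 1, 3 and 4) was 18 months old, the young vehicle group (libraries 2, 3 and 4) was 2 months old, and both received vehicle. GW8510 is a benzenesulfonamide that the series title links to the p21-activated kinases. The labels name neither the muscle nor the time of collection, so age and any batch of collection cannot be told apart, and they do not say that each library is a separate animal, so p-values measure the spread between these samples.

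Collagens are extracellular proteins in which alpha chains wind into a helix that needs a glycine at each repeat of the chain. In skeletal muscle, types I and III form the fibrils of the connective tissue sheaths, type IV forms the sheet-like network of the basement membrane around each fibre and capillary, and type VI forms beaded microfilaments between them. The fibrils are made mainly by fibroblasts between the fibres and the basement membrane chains also by endothelial cells and pericytes. In bulk tissue, fewer cells of a type and less RNA per cell cannot be told apart.

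The libraries held 21718965 to 27437970 counts, so that 3 counts correspond to 0.109 to 0.138 CPM, counts scaled by the library total. Markers of muscle fibres, such as Acta1 and Ckm, summed to 102273 to 129977 TPM (transcripts scaled by length and library total) in aged GW8510, 119301 to 138780 TPM in aged vehicle and 141894 to 166639 TPM in young vehicle libraries. No gene of that list passed in any comparison by edgeR, and the part of fibre RNA in the results below was not tested. Aged vehicle library 4 stood apart: the mean correlation of its log2 CPM with its own group, across tested genes, was 0.942, against 0.956 to 0.971 for the other libraries. It was the lowest of all 9 libraries for 23 of the 35 tested collagen genes (65.7%), whereas it was lowest for 24.2% of all tested genes. GW8510 library 4 was the highest of its group for 30 of the 35, whereas it was so for 34.9% of all tested genes. Medians over the tested collagen genes and selected fold changes are also given without the library concerned. Class medians and other values include all libraries unless stated.

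The repeat that defines the family can be read in the coding sequences, and its length sets the fibrillar class apart from the others. In each stretch of 18 codons below, read 5′ to 3′ from the start of the longest unbroken run of repeats (GENCODE M21, GRCm38, coding strand), the capitals mark the glycine codon that opens each repeat. Shown are the fibrillar chains Col1a1 and Col3a1 and the 4 genes that passed the test in a comparison.
Col1a1: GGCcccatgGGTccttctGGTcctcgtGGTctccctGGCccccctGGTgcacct
Col3a1: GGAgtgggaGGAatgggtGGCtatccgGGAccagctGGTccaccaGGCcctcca
Col4a1: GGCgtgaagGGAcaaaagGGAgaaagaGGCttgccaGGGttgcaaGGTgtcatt
Col4a2: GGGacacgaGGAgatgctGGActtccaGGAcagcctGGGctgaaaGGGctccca
Col14a1: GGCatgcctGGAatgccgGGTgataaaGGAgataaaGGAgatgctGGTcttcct
Col26a1: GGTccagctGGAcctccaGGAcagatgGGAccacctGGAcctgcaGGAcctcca

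The unbroken run was 338 repeats in Col1a1 and 344 in Col3a1. It was 40 repeats in Col4a1, 66 in Col4a2, 32 in Col14a1 and 23 in Col26a1. Over the 11 fibrillar chains it was 216 to 344, the lowest being Col24a1 and Col27a1 (217), and no chain of another class exceeded 113. Counting runs of at least 4 repeats, Col4a1 has 443 repeats in 22 runs and Col1a1 has 355 in 2. Col14a1 has 1798 codons, of which 10.8% encode glycine, against 26.8% in Col1a1. Its runs of at least 4 repeats hold 84 repeats, so most of its codons lie outside them. The FACIT chains differed in this, with glycine codons from 9.17% in Col12a1 to 31.2% in Col9a3.

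The first question is how the chains differed with age in vehicle-treated mice. Summed over the 43 genes, collagen transcripts stood at 102, 129 and 38.0 TPM in the aged vehicle libraries, against 631, 822 and 429 TPM in the young vehicle libraries. The groups did not overlap, and the lowest aged vehicle value was that of library 4. As a share of all counts, collagens took 0.0413%, 0.0538% and 0.0132% in aged vehicle and 0.250%, 0.336% and 0.176% in young vehicle libraries. The makeup differed as well. Fibrillar chains were 44.6%, 44.9% and 17.4% of the collagen TPM in aged vehicle libraries and 61.8%, 68.5% and 59.4% in young vehicle libraries. Basement membrane chains were 21.9%, 19.9% and 30.3% in aged vehicle libraries, against 13.2%, 12.7% and 17.4% in young ones. Their summed level was still lower with age, at 22.37, 25.55 and 11.53 TPM in aged vehicle and 83.25, 104.28 and 74.84 TPM in young vehicle libraries. Shares and sums are descriptions and were not tested.

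**Figure D1:**
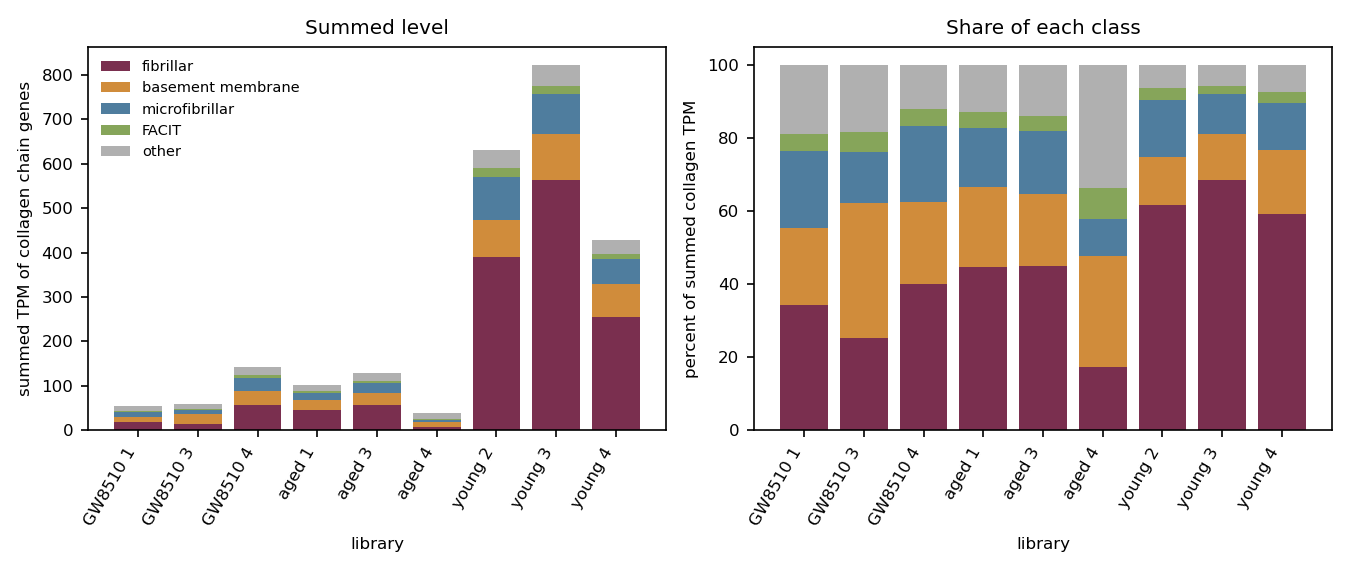
Summed TPM of collagen chain genes in each library (left, stacked by class) and the percent of that sum taken by each class (right). The young vehicle libraries sum to 429 to 822 TPM with a fibrillar share of 59.4% to 68.5%, and all 6 aged libraries sum to 38.0 to 142 TPM with a fibrillar share of 17.4% to 44.9%.

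Of the 43 genes, 35 passed the filter on low counts. The other 8, Col2a1, Col6a4, Col6a5, Col9a1, Col9a2, Col9a3, Col25a1 and Col28a1, held 12 to 85.97 counts over all libraries and at most 0.36 TPM in any. Col8a2, Col11a1 and Col26a1 passed the filter only through the young vehicle libraries, where they were high. With the aged libraries alone the filter removed them. In aged vehicle over young vehicle, 3 of the 35 tested genes fell and none rose (edgeR's quasi-likelihood test with Benjamini-Hochberg adjustment over 14384 genes, threshold 0.05). Of all tested genes, 0.695% fell and 0.521% rose. The 3 are Col14a1, Col4a1 and Col4a2. At an unadjusted p under 0.05, 27 of the 35 differed, against 19.2% of all genes. In 27 of the 35, every aged vehicle library lay below every young vehicle library, against 13.5% of all genes, and in none did every one lie above (12.7% of all genes). The same count of 27 was found without aged vehicle library 4, where the share of all genes was 18.2%, a setting chosen after seeing the data. The median log2 fold change over the 35 was -1.94, against 0.01 over all tested genes. It was -1.70 over the 38 collagen genes tested in the fit without aged vehicle library 4. By class, with all libraries, the median was -2.65 for fibrillar, -2.35 for microfibrillar, -1.72 for basement membrane, -1.67 for FACIT and -1.47 for other chains.

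The number that passed depended on the fit. DESeq2 called 20 lower and none higher, against 3.96% of all genes lower. With only the 6 libraries of the comparison in the fit, 1 passed, the FACIT gene Col12a1 (0.276% of all genes lower). Each library was also left out in turn, with the share of all genes lower in that fit in brackets. The filter was repeated each time, so these fits tested 36 to 38 collagen genes. No collagen gene passed without GW8510 library 3 (0.161%), aged vehicle library 1 (0.108%), young vehicle library 2 (0.218%) or young vehicle library 3 (0.0741%). A single gene passed without aged vehicle library 4 (0.505%) or young vehicle library 4 (0.244%). The count was 3 without aged vehicle library 3 (0.602%), 4 without GW8510 library 1 (0.484%) and 5 without GW8510 library 4 (0.612%). In the authors' deposited table, 22 of the 43 kept genes are marked as lower in aged vehicle, against 1.78% of the genes given a p-value there.

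**Figure D2:**
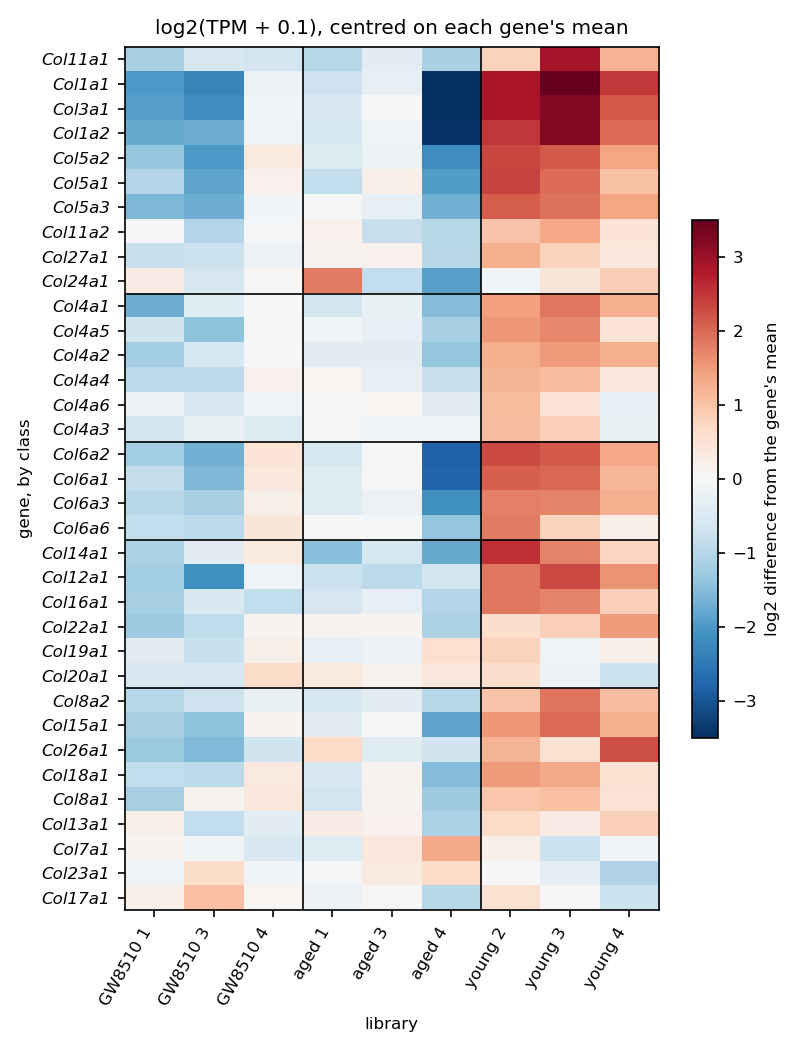
Level of each of the 35 tested genes (rows, by class) in each library (columns), as the log2 of TPM plus 0.1, centred on the gene's mean over the 9 libraries. The young vehicle columns lie above the mean for most rows, aged vehicle library 4 holds the deepest values for Col1a1, Col1a2 and Col3a1, and GW8510 library 4 lies above the other GW8510 libraries in most rows.

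Among fibrillar chains, the type I and type III genes were the most abundant. Col3a1, the chain of type III collagen, stood at 20.5, 30.2 and 2.60 TPM in aged vehicle libraries, against 216, 286 and 135 TPM in young vehicle libraries. Col1a1 (GRCm38 chr11:94936224-94953042, plus strand) stood at 4.36, 5.99 and 0.52 TPM in aged vehicle libraries, against 53.2, 104 and 41.0 TPM in young vehicle libraries. Col1a2, its partner in type I collagen, stood at 9.61, 13.8 and 1.28 TPM in aged vehicle and 84.0, 139 and 58.4 TPM in young vehicle libraries. For all 3 genes the groups did not overlap, and aged vehicle library 4 lay well below the other aged libraries. None passed the threshold. The log2 fold change was -4.07 for Col1a1 (standard error 0.89, edgeR adjusted p = 0.064), -3.39 for Col1a2 (adjusted p = 0.0774) and -3.48 for Col3a1 (adjusted p = 0.0913). Without aged vehicle library 4 the log2 fold changes were -3.56, -2.88 and -2.94, and none passed by edgeR. With all 9 libraries, DESeq2 called each of the 3 genes lower.

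The other fibrillar chains were less abundant. Col5a1, Col5a2 and Col5a3 encode type V collagen, which seeds and limits fibrils. They averaged 1.46 ± 1.11, 1.08 ± 0.67 and 1.64 ± 0.85 TPM in aged vehicle libraries, against 8.58 ± 3.68, 7.73 ± 2.53 and 8.85 ± 2.23 TPM in young vehicle libraries (SD, n = 3 each). Their log2 fold changes were -2.59, -2.71 and -2.31, with edgeR adjusted p of 0.0884, 0.0886 and 0.0687. Without aged vehicle library 4 they were -2.12, -2.27 and -1.92. Col11a1, a type XI chain known mainly from cartilage, had the most negative log2 fold change of the family at -4.91 (standard error 1.03, edgeR adjusted p = 0.0566). It rests on few reads: 1, 6 and 0 counts in aged vehicle libraries, against 49, 129 and 46 in young vehicle libraries. The ratio of its summed counts per library total was 0.0319 (exact 95% interval 0.0127 to 0.0669, counting error only). Col24a1 departed from the class. It had 5.02, 0.70 and 0.29 TPM in aged vehicle and 1.27, 1.84 and 2.56 TPM in young vehicle libraries, so aged vehicle library 1 held the highest value of all 9. Its log2 fold change of 0.09 (95% interval -1.60 to 1.78) was -1.56 without that library.

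**Figure D3:**
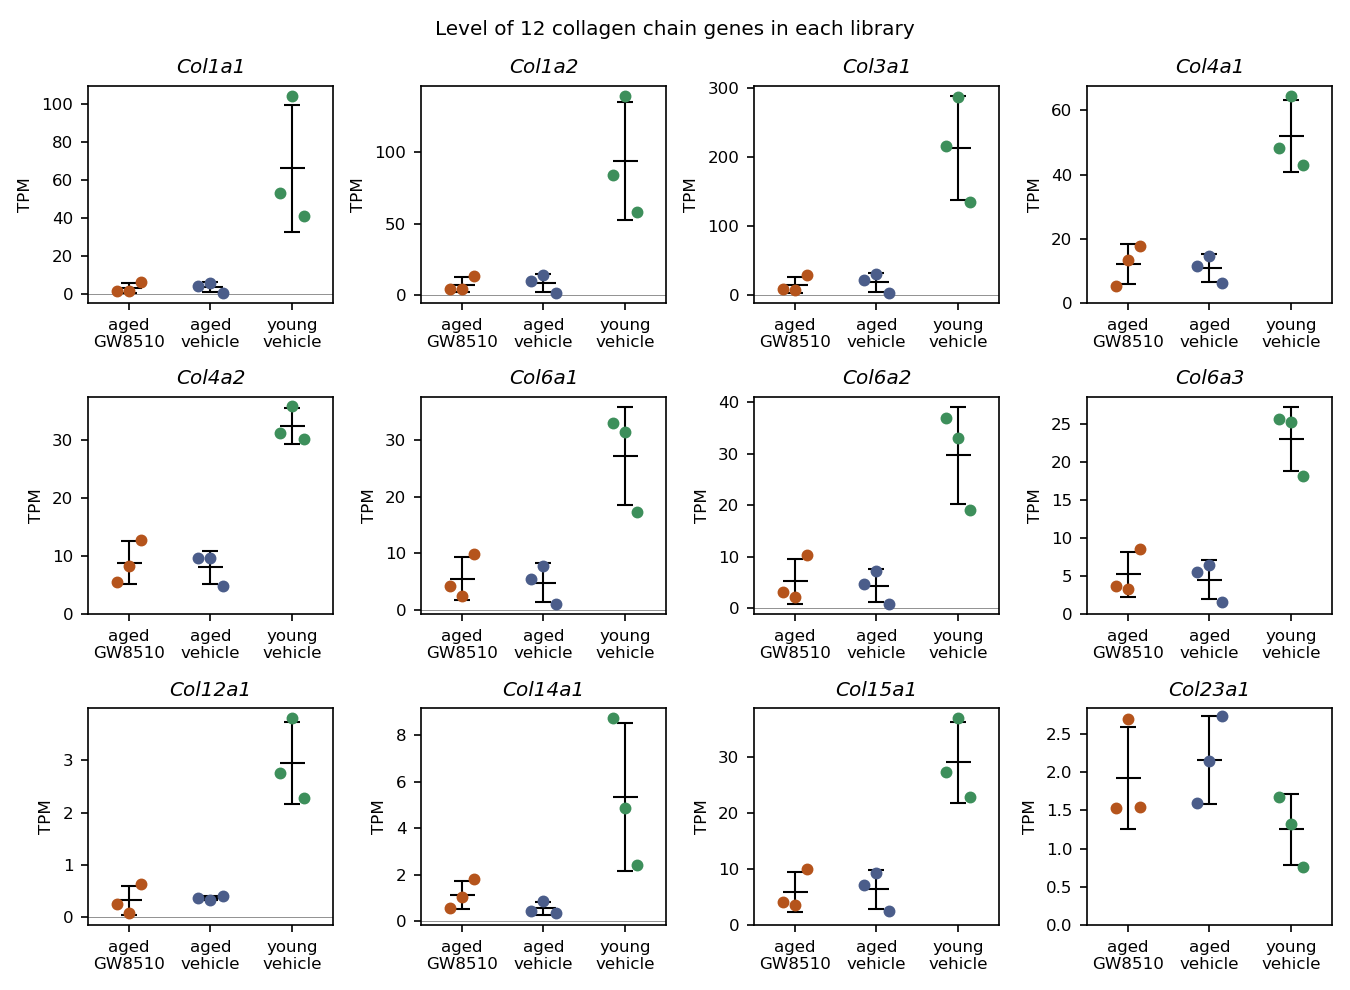
TPM of 12 collagen chain genes in each library (points), with the group mean and SD (bars, n = 3 per group). For every gene shown except Col23a1 the aged libraries of both kinds lie below the young vehicle libraries, and for Col23a1 the groups overlap.

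The basement membrane chains gave both genes of the main type IV network. Col4a1 (GRCm38 chr8:11198423-11312826, minus strand) stood at 11.5, 14.8 and 6.11 TPM in aged vehicle libraries, against 48.3, 64.7 and 43.1 TPM in young vehicle libraries. It fell 4.81-fold (log2 fold change -2.27, standard error 0.42, edgeR adjusted p = 0.0394). Col4a2 (chr8:11312805-11449287, plus strand) stood at 9.69, 9.70 and 4.80 TPM in aged vehicle libraries, against 31.2, 35.9 and 30.1 TPM in young vehicle libraries. It fell 3.78-fold (log2 fold change -1.92, standard error 0.35, edgeR adjusted p = 0.0383). Neither gene's groups overlapped. Leaving out 1 library at a time, Col4a1 passed in 3 of 9 fits and Col4a2 in 4 of 9. Without aged vehicle library 4 their log2 fold changes were -1.95 and -1.62, and Col4a2 was the 1 collagen gene that passed. The pair lies head to head, with starts 21 bases apart and 22 shared exonic bases, which are 0.295% of the exonic bases of Col4a1. Whether counting used strand is not given in the sources used here, so reads in that overlap cannot be assigned.

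The remaining type IV chains form the networks known from kidney glomerulus and other specialised membranes, and they were scarce. Col4a5 averaged 0.483 ± 0.199 TPM in aged vehicle and 1.87 ± 0.76 TPM in young vehicle libraries, with a log2 fold change of -1.94 (edgeR adjusted p = 0.0862). Col4a3, Col4a4 and Col4a6 averaged 0.203, 0.180 and 0.0933 TPM in aged vehicle libraries, against 0.407, 0.547 and 0.203 TPM in young vehicle libraries. Their log2 fold changes of -0.97, -1.51 and -0.97 did not pass. The exons of Col4a3 overlap C430014B12Rik on the other strand over 5.65% of their bases.

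Type VI collagen is assembled from the products of Col6a1, Col6a2 and another chain, and variants of these genes cause muscle disease in humans. Col6a1 stood at 5.54, 7.84 and 1.04 TPM in aged vehicle libraries, against 32.9, 31.4 and 17.2 TPM in young vehicle libraries. Col6a2 stood at 4.80, 7.32 and 0.95 TPM in aged vehicle and 37.0, 33.0 and 19.1 TPM in young vehicle libraries. Col6a3, the long chain, stood at 5.54, 6.46 and 1.62 TPM in aged vehicle libraries, against 25.7, 25.4 and 18.2 TPM in young vehicle libraries. All groups were apart, with library 4 again the lowest aged vehicle value. The log2 fold changes were -2.35, -2.61 and -2.35, with edgeR adjusted p of 0.121, 0.106 and 0.10. Without aged vehicle library 4 they were -1.87, -2.13 and -1.89. Col6a6, an alternative to Col6a3, averaged 0.403 ± 0.220 TPM in aged vehicle and 1.29 ± 0.80 TPM in young vehicle libraries.

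FACIT collagens decorate the surface of fibrils. Col14a1 (GRCm38 chr15:55307750-55520803, plus strand), whose product binds fibrils and regulates their growth, stood at 0.44, 0.88 and 0.34 TPM in aged vehicle libraries, against 8.75, 4.87 and 2.44 TPM in young vehicle libraries. The young values differed among themselves by more than 3-fold, and still the groups did not overlap. It fell 9.60-fold (log2 fold change -3.26, standard error 0.56, edgeR adjusted p = 0.0308), and passed in 4 of the 9 fits that leave out 1 library. Without aged vehicle library 4 the log2 fold change was -2.98 and did not pass. Col12a1, a related chain linked to myopathy in humans, stood at 0.37, 0.32 and 0.41 TPM in aged vehicle and 2.76, 3.81 and 2.27 TPM in young vehicle libraries (log2 fold change -2.72, edgeR adjusted p = 0.0647). By TPM its aged vehicle libraries lay close together with library 4 the highest, but by counts library 4 was the lowest, with 18 counts against 33 and 34 in aged vehicle libraries 1 and 3. Col16a1 and Col22a1 averaged 0.697 ± 0.200 and 1.53 ± 0.66 TPM in aged vehicle, against 3.43 ± 1.20 and 3.70 ± 1.27 TPM in young vehicle libraries. Col22a1 is known from the junction of muscle and tendon. Col20a1 overlapped between groups, with 0.91, 0.78 and 0.94 TPM in aged vehicle and 1.14, 0.60 and 0.38 TPM in young vehicle libraries.

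Of the other chains, Col15a1 and Col18a1 encode collagens of the basement membrane zone. Col15a1 was the most abundant of the class, at 7.19, 9.26 and 2.54 TPM in aged vehicle and 27.2, 36.9 and 22.8 TPM in young vehicle libraries (log2 fold change -2.41, edgeR adjusted p = 0.0814). Col18a1 stood at 1.13, 1.83 and 0.52 TPM in aged vehicle and 4.89, 4.30 and 2.45 TPM in young vehicle libraries. Both sets of groups were apart, and neither gene passed.

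Along with Col24a1, whose sign rests on aged vehicle library 1, and Col20a1, 3 genes of this class had a log2 fold change above 0 with age. Col7a1, the anchoring fibril chain known from skin, stood at 1.82, 3.36 and 6.54 TPM in aged vehicle, against 2.84, 1.46 and 2.28 TPM in young vehicle libraries. Col23a1, a membrane-spanning collagen, stood at 1.59, 2.15 and 2.74 TPM in aged vehicle, against 1.68, 1.32 and 0.76 TPM in young vehicle libraries. By TPM, library 4 was the highest aged vehicle library for both genes. By counts this held for Col7a1, with 146, 137 and 253 counts, and not for Col23a1, with 120, 150 and 72 counts in aged vehicle libraries. Col17a1, a membrane-spanning collagen of hemidesmosomes, averaged 0.283 ± 0.129 TPM in aged vehicle and 0.380 ± 0.205 TPM in young vehicle libraries, while its count-based log2 fold change was 0.23 (standard error 0.48). None of these genes passed. The 95% intervals of the log2 fold change ran from -0.76 to 1.01 for Col7a1, from -0.46 to 0.84 for Col23a1 and from -0.84 to 1.30 for Col17a1.

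The second question is whether the chains differed after GW8510 in mice of the same age. The summed collagen level was 54.5, 59.5 and 142 TPM in aged GW8510 libraries, against 102, 129 and 38.0 TPM in aged vehicle libraries. The groups overlapped. Of the 35 tested genes none rose or fell (edgeR's quasi-likelihood test, smallest adjusted p 0.934, with 0.0% of all genes called), and DESeq2 called 0 of them, with 0.0765% of all genes called. At an unadjusted p under 0.05, 2 genes differed by edgeR (4.5% of all genes) and 1 by DESeq2 (5.18%). The authors' deposited table marks none of the 43. The log2 fold change was above 0 for 19 genes and below 0 for 16 (49.1% of all genes were below 0). The median was 0.04, against 0.01 over all tested genes. That sign rests on single libraries: the median was -0.54 without GW8510 library 4 and -0.29 without aged vehicle library 4. Each of these fits tested 38 collagen genes.

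Individual chains gave wide intervals. Col3a1 stood at 7.78, 6.39 and 27.8 TPM in aged GW8510 libraries, against 20.5, 30.2 and 2.60 TPM in aged vehicle libraries. Its log2 fold change of -0.24 had a 95% interval from -2.07 to 1.59. Col1a1 stood at 1.74, 1.37 and 6.32 TPM in aged GW8510 libraries, against 4.36, 5.99 and 0.52 TPM in aged vehicle libraries. Each group held a library far from its other 2, in opposite directions. Col4a1 stood at 5.37, 13.3 and 17.7 TPM in aged GW8510 libraries, against 11.5, 14.8 and 6.11 TPM in aged vehicle libraries, with a 95% interval of the log2 fold change from -0.65 to 1.15. Col4a2 had a narrower interval, from -0.51 to 1.01. For Col1a1 the interval ran from -1.94 to 1.61. In aged vehicle over young vehicle the log2 fold change was -4.07 for Col1a1 (95% interval -6.06 to -2.09) and -3.48 for Col3a1 (-5.49 to -1.48). It was -2.27 for Col4a1 (-3.21 to -1.33) and -1.92 for Col4a2 (-2.70 to -1.14). Both comparisons use the aged vehicle libraries, and a difference between them was not tested.

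The extremes in this comparison were few. Of those named here, Col11a1 and Col26a1 were tested only because of their counts in young vehicle libraries. Col14a1 had the most positive log2 fold change, 1.22 (95% interval 0.01 to 2.42, edgeR adjusted p = 0.934), with 0.59, 1.03 and 1.80 TPM in aged GW8510 libraries and 0.44, 0.88 and 0.34 TPM in aged vehicle libraries. The groups overlapped. Col11a1 followed at 0.77, on 0, 4 and 7 counts in aged GW8510 and 1, 6 and 0 counts in aged vehicle libraries. Col7a1 had -0.70 (95% interval -1.60 to 0.20). Col26a1, a small collagen with a short helix (GRCm38 chr5:136741759-136883209, minus strand), had 1, 0 and 2 counts in aged GW8510 libraries, against 6, 4 and 4 counts in aged vehicle libraries. It was the single gene of the 35 whose groups were apart and lower (3.33% of all genes), and none was apart and higher (3.89% of all genes). Without aged vehicle library 4, 3 genes were apart and lower, against 6.76% of all genes. The ratio of summed Col26a1 counts per library total was 0.230 (exact 95% interval 0.0423 to 0.823, counting error only).

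The third comparison sets the aged GW8510 group against the young vehicle group. It shares the young vehicle libraries with the age comparison, so the values are given side by side and not as independent evidence. The summed level was 54.5, 59.5 and 142 TPM in aged GW8510 libraries, against 631, 822 and 429 TPM in young vehicle libraries. Of the 35 tested genes 1 fell, Col26a1, and none rose (edgeR, 0.417% of all genes fell and 0.334% rose). Col26a1 had passed the filter on low counts only through the young vehicle libraries, the group where it was high. At an unadjusted p under 0.05, 26 differed, against 16.7% of all genes. In 25 genes every aged GW8510 library lay below every young vehicle library (12.8% of all genes). Col17a1 was the single gene with every one above by CPM (12.9% of all genes). By TPM its groups overlapped, at 0.46, 0.88 and 0.40 in aged GW8510 libraries and 0.59, 0.37 and 0.18 in young vehicle libraries. The median log2 fold change was -2.02, against 0.01 over all tested genes. It was -2.42 over the 38 collagen genes tested without GW8510 library 4. By class, with all libraries, it was -2.63 for fibrillar, -2.11 for microfibrillar, -1.82 for FACIT, -1.69 for basement membrane and -0.94 for other chains.

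Col26a1 had 1, 0 and 2 counts in aged GW8510 libraries, against 30, 18 and 25 counts in young vehicle libraries. The ratio of summed counts per library total was 0.0450 (exact 95% interval 0.00908 to 0.137, counting error only), and the edgeR adjusted p was 0.0254. It passed in 4 of the 9 fits that leave out 1 library. In aged vehicle libraries it had 6, 4 and 4 counts, with an edgeR adjusted p of 0.0814 against young vehicle.

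More genes passed in other fits of this comparison. DESeq2 called 18 lower (3.1% of all genes), and 17 were lower with only the 6 libraries compared (1.87%). Leaving out aged vehicle library 4, which is in neither group compared, gave 19 lower among 38 tested (2.27%). Without GW8510 library 4, 3 fell (0.491%), and without aged vehicle library 1 (0.331%) or aged vehicle library 3 (0.521%), 1 fell. None fell without GW8510 library 1 (0.121%), GW8510 library 3 (0.0807%), young vehicle library 2 (0.265%), young vehicle library 3 (0.108%) or young vehicle library 4 (0.217%). The authors' deposited table marks 25 of the 43 as lower in aged GW8510, against 1.77% of the genes given a p-value there.

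For Col1a1 the log2 fold change against young vehicle was -4.24 in aged GW8510 and -4.07 in aged vehicle. For Col3a1 the values were -3.72 in aged GW8510 and -3.48 in aged vehicle. For Col14a1 they were -2.05 in aged GW8510 and -3.26 in aged vehicle, and for Col4a2 -1.67 in aged GW8510 and -1.92 in aged vehicle. None of these genes passed in the direct comparison of the aged groups.

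**Figure D4:**
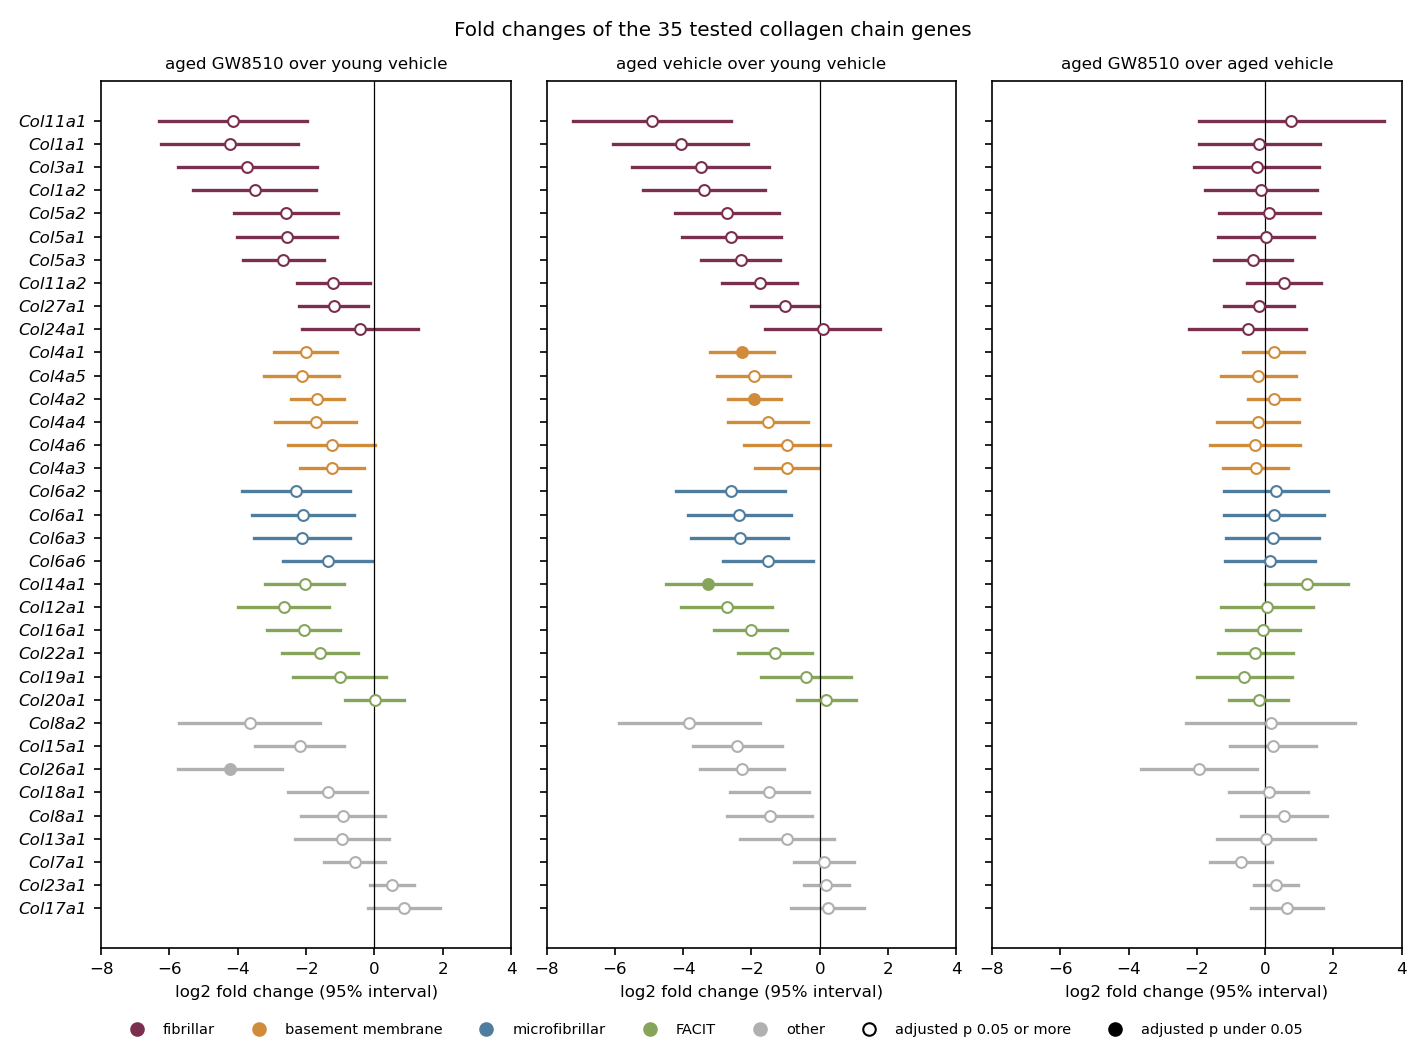
Log2 fold change with its 95% interval for the 35 tested genes, ordered by class, in aged GW8510 over young vehicle (left), aged vehicle over young vehicle (middle) and aged GW8510 over aged vehicle (right). Filled points have an adjusted p under 0.05: Col26a1 on the left, and Col4a1, Col4a2 and Col14a1 in the middle. On the right all intervals but those of Col14a1 and Col26a1 include 0, and none is filled.

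Chains that assemble together were compared as TPM ratios within a library, a description with no test. Col1a1 to Col1a2, chains of the same type I molecule, stood at 0.412, 0.315 and 0.472 in aged GW8510, 0.454, 0.434 and 0.406 in aged vehicle, and 0.634, 0.749 and 0.702 in young vehicle libraries. Every aged library lay below every young vehicle library, and aged vehicle library 4, with the lowest level of both chains, had a ratio close to those of the other aged vehicle libraries. Col6a1 to Col6a2 stood at 1.33, 1.13 and 0.961 in aged GW8510, 1.15, 1.07 and 1.09 in aged vehicle, and 0.889, 0.953 and 0.904 in young vehicle libraries. The groups did not overlap between the ages, although the smallest gap was between 0.961 and 0.953. Col4a1 to Col4a2 overlapped, with 0.971 to 1.61 in aged GW8510, 1.18 to 1.53 in aged vehicle and 1.43 to 1.80 in young vehicle libraries. Col5a2 to Col5a1 overlapped as well, with 0.623 to 0.933 in aged GW8510, 0.601 to 1.08 in aged vehicle and 0.813 to 1.04 in young vehicle libraries. Col6a3 to Col6a1 ran from 0.782 to 1.56 over all libraries, and Col4a4 to Col4a3, both scarce, from 0.471 to 2.15.

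**Figure D5:**
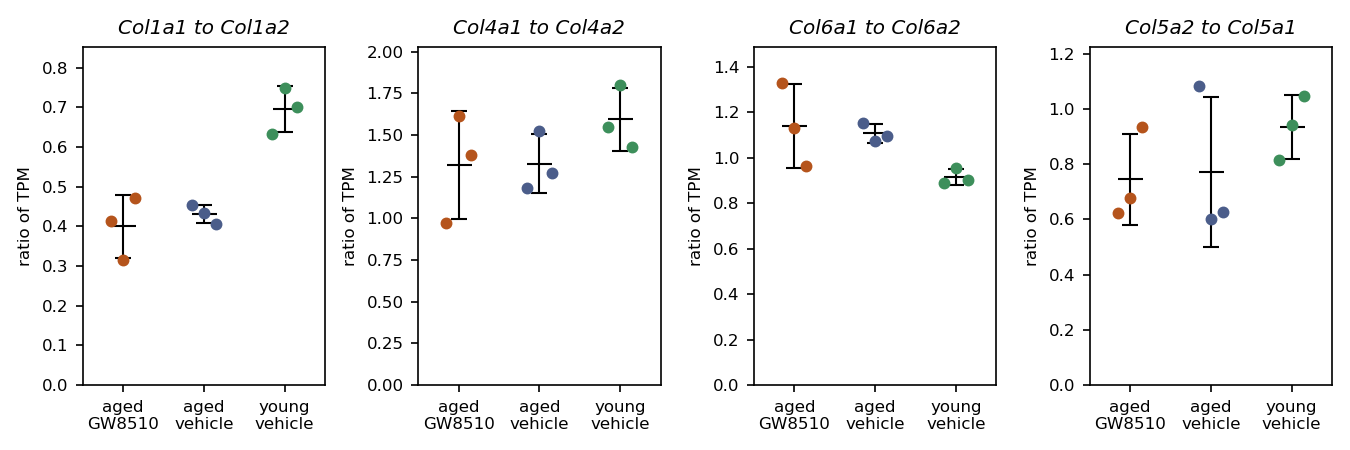
Ratio of TPM between chains that assemble together, in each library (points) with the group mean and SD (bars, n = 3 per group). The ratio of Col1a1 to Col1a2 is 0.315 to 0.472 in the 6 aged libraries and 0.634 to 0.749 in the young vehicle libraries, and the ratios of Col4a1 to Col4a2 and Col5a2 to Col5a1 overlap between groups.

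Genes that fold, process and bind collagen were read from 4 lists. Of 20 tested genes of folding and modification, 1 fell in aged vehicle over young vehicle and none rose, with a median log2 fold change of -0.48. Of all tested genes, 0.695% fell and 0.521% rose in that edgeR fit. The folding gene that fell was Serpinh1, the collagen-specific chaperone (3.14-fold, edgeR adjusted p = 0.0394). It stood at 26.0, 23.6 and 13.6 TPM in aged vehicle, against 69.4, 73.8 and 68.0 TPM in young vehicle libraries. Of 12 tested genes of procollagen processing and cross-linking, 2 fell and none rose, with a median of -1.46. Adamts2, which removes the amino-terminal propeptide, stood at 1.09, 1.13 and 0.44 TPM in aged vehicle, against 4.76, 4.36 and 2.74 TPM in young vehicle libraries (4.43-fold lower, edgeR adjusted p = 0.0445). Lox, the cross-linking enzyme lysyl oxidase, stood at 1.29, 1.38 and 1.12 TPM in aged vehicle, against 3.90, 4.04 and 2.88 TPM in young vehicle libraries (2.70-fold lower, edgeR adjusted p = 0.0496). Without aged vehicle library 4, 1 gene of folding and 0 of processing fell (0.505% of all genes). DESeq2 called 4 of the 20 folding genes and 7 of the 12 processing genes lower, against 3.96% of all genes.

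None of 10 tested collagen receptor genes (median -0.58) passed in aged vehicle over young vehicle by edgeR. None of 8 small proteoglycan genes of fibrils (median -1.51) passed either. DESeq2 called 3 of the receptor genes and 2 of the proteoglycan genes lower, against 3.96% of all genes. In aged GW8510 over aged vehicle no gene of these 4 lists passed, with 0.0% of all genes called by edgeR. Their medians there were 0.09 for folding, 0.20 for processing, 0.19 for receptors and 0.31 for proteoglycans. In aged GW8510 over young vehicle Lox was the one to fall (3.27-fold, edgeR adjusted p = 0.0307), against 0.417% of all genes. It stood at 0.69, 0.68 and 1.53 TPM in aged GW8510 libraries. As with the collagens, the count depended on the fit. DESeq2 called 3 folding, 6 processing, 2 receptor and 0 proteoglycan genes lower in that comparison, against 3.1% of all genes. In the edgeR fit without aged vehicle library 4 the counts were 2, 5, 2 and 1, against 2.27% of all genes.

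Markers of collagen-producing and neighbouring cells were read beside these results. The 13 fibroblast markers summed to 329 to 680 TPM in aged GW8510, 188 to 517 TPM in aged vehicle and 515 to 1527 TPM in young vehicle libraries, and none was at 0 in any library. Of the 13, Cd34 fell in aged vehicle over young vehicle (2.09-fold, edgeR adjusted p = 0.0470), against 0.695% of all genes. None passed without aged vehicle library 4 (0.505% of all genes lower). DESeq2 called 3 of the 13 lower, against 3.96% of all genes. The list median was -1.45. The 9 tendon cell markers summed to 21.3 to 40.7 TPM in aged GW8510, 18.1 to 38.8 TPM in aged vehicle and 80.3 to 162 TPM in young vehicle libraries, with Comp, Kera and Chad at 0 in some libraries. Cilp2, a cartilage intermediate layer gene among them, stood at 0.03, 0.02 and 0.12 TPM in aged GW8510, 0.09, 0.16 and 0.01 TPM in aged vehicle, and 1.82, 4.62 and 1.33 TPM in young vehicle libraries. It fell 39.8-fold in aged GW8510 (edgeR adjusted p = 0.0250) and 25.8-fold in aged vehicle (edgeR adjusted p = 0.0308), each over young vehicle. Of all tested genes, 0.417% and 0.695% fell in these comparisons. The size of these folds is uncertain, because the aged libraries held only 0.01 to 0.16 TPM. The median log2 fold change of the 8 tested tendon cell markers was -3.72 in aged vehicle and -3.33 in aged GW8510, each over young vehicle. DESeq2 called 2 of the 8 lower in each of these comparisons. The share of all genes it called lower was 3.96% for aged vehicle and 3.1% for aged GW8510. Smooth muscle and pericyte markers overlapped between all groups, at 202 to 243 TPM in aged GW8510, 83.4 to 225 TPM in aged vehicle and 184 to 282 TPM in young vehicle libraries. Endothelial markers summed to 153 to 220 TPM in aged GW8510, 137 to 160 TPM in aged vehicle and 177 to 245 TPM in young vehicle libraries. Schwann cell markers summed to 14.8 to 81.0 TPM in aged GW8510, 12.9 to 65.6 TPM in aged vehicle and 81.2 to 126 TPM in young vehicle libraries. No gene of these 3 lists passed in any comparison by edgeR. DESeq2 called 2 of 10 tested endothelial genes lower in aged vehicle over young vehicle, against 3.96% of all genes.

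The collagen sum was lower with age also relative to the fibroblast markers. Their ratio was 0.166, 0.167 and 0.208 in aged GW8510 libraries, 0.213, 0.249 and 0.202 in aged vehicle libraries, and 0.413, 0.842 and 0.833 in young vehicle libraries. Aged vehicle library 4, lowest in both sums, had a ratio near those of libraries 1 and 3. The ratio to the tendon cell markers was 2.03, 2.79 and 3.48 in aged GW8510 and 3.47, 3.31 and 2.10 in aged vehicle libraries. In young vehicle libraries it was 7.31, 5.06 and 5.34. The part of cell makeup in the collagen values was not tested.

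Promoter sequence was compared last, for the kept genes and not only for the 27 whose groups were apart and lower with age. Windows of the 250 bases before the start were at hand for 34 of the 43 genes (RefSeq, GRCm38.p6, 37 windows) and for 32851 promoters in all. Genes without a window include Col1a1, Col14a1 and Col26a1, and some windows belong to genes that were not tested, such as Col9a1 and Col28a1. The motif GGGCGG, on either strand, was in 59.5% of the collagen windows and 32.7% of all windows. The share of G and C letters in the collagen windows ran from 35.2% (Col3a1) to 76.4% (Col5a1), and its part in the GGGCGG share was not tested. CCAAT was in 35.1% of the collagen windows and 33.8% of all, TATAA in 16.2% and 22.8%, and TGANTCA in 2.70% and 6.75%, each on either strand. A match is a description of letters, not a binding site. Shown are Col3a1, the most abundant chain, whose aged libraries all lay below the young, and Col23a1, whose groups overlapped. Capitals mark TATAA in Col3a1, which overlaps its own reverse complement at 118 bases before the start, and GGGCGG in Col23a1, found as its reverse complement 11 bases before the start.
Col3a1 promoter (chr1:45311288-45311537, plus strand): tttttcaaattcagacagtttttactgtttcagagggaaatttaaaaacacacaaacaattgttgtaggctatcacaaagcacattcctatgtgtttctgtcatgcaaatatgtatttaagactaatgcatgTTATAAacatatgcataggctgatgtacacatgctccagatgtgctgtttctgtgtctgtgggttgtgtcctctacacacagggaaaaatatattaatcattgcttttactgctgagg
Col23a1 promoter (chr11:51289670-51289919, plus strand): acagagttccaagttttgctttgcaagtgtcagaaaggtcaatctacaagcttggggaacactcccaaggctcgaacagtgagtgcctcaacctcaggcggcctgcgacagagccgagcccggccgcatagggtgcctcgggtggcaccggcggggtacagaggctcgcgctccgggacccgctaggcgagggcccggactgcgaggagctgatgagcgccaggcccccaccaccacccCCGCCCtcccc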

How the data were processed

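RNA sequencing of muscle gave 9 libraries in 3 groups of 3. The authors deposited expected counts per gene without normalization, TPM values, and log2 ratios with raw and adjusted p-values of each pair of groups, per the file headers. Of the count values 91.4% were whole. The submitters' processing notes name GRCm38, CASAVA, HISAT2, StringTie, RSEM, DESeq2 and edgeR without roles. Counts were rounded, filtered with filterByExpr (14384 genes left), scaled by TMM and tested in R 4.3.3 by the two-sided quasi-likelihood F test of edgeR 4.0.16. A single fit held the 9 libraries, with Benjamini-Hochberg adjustment per comparison and a threshold of 0.05. Standard errors were derived from F and the log2 fold change. TPM served for levels between genes. Gene positions came from GENCODE M21, where 55450 of the gene IDs were found. Depth was 21718965 to 27437970 counts per library, and intervals of count ratios (exact binomial, 95%) cover counting error only. Alternatives were DESeq2 1.42.0, RLE scaling, no filterByExpr, only the 6 libraries compared, the replicate number as a block, and each library left out. Genes named are those past the threshold, the 4 most abundant per class, the extremes of each comparison, ratio partners and list genes past the threshold. Others were named after their values were seen. The members and lists were chosen with earlier results of these data known.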

Additional observations from a re-analysis of the deposited data

How the results depend on the processing

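Median log2 fold changes against young vehicle were negative in every fit run, over the 35 to 43 collagen genes that each fit tested. RLE scaling and no filterByExpr changed no call of a named gene. The count of collagen genes called in aged vehicle over young vehicle, 3 by edgeR, was 20 with DESeq2, 1 with only the 6 libraries compared and 0 to 5 over the fits that leave out 1 library. In aged GW8510 over young vehicle it was 1, against 18 with DESeq2, 17 with only the 6 libraries and 0 to 19 leaving out 1 library, and that median ran from -2.42 to -1.70. In aged GW8510 over aged vehicle the median ran from -0.54 to 0.51, with reversals without GW8510 library 4 (-0.54) and aged vehicle library 4 (-0.29). The causes were not tested. Correlations of deviations from the group means were -0.209 to 0.138 for same-numbered libraries and -0.229 to 0.271 for libraries of different number. The labels do not say whether the numbers pair samples, and these correlations cannot settle it. With the replicate number as a block, 0 collagen genes were called in either comparison with young vehicle, where that fit called 0.0348% (aged vehicle) and 0.0556% (aged GW8510) of all genes. Under the block the log2 fold change of Col24a1 in aged vehicle over young vehicle was -1.18, and in aged GW8510 over aged vehicle the log2 fold changes of Col1a1, Col1a2 and Col3a1 were 0.10, 0.18 and 0.08. Without aged vehicle library 4, 3 genes were apart and lower in that comparison. Leaving out 1 library also turned the sign of uncalled log2 fold changes. In aged GW8510 over aged vehicle it did so for 25 of the 35 genes, between -1.19 and 2.77, among them Col11a1 (-0.07 to 2.77), Col1a1 (-1.07 to 0.48), Col1a2 (-0.80 to 0.55), Col3a1 (-1.0 to 0.55), Col4a1 (-0.13 to 0.58) and Col4a2 (-0.06 to 0.48). In aged vehicle over young vehicle they were Col17a1 (-0.17 to 0.58), Col20a1 (-0.07 to 0.59), Col23a1 (-0.08 to 0.40), Col24a1 (-1.56 to 0.62) and Col7a1 (-0.29 to 0.32), and in aged GW8510 over young vehicle Col20a1 (-0.44 to 0.40). The floor of 3 counts, 0.109 to 0.138 CPM, limits what can be said of the scarcest chains.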

Other observations

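Among chains too scarce to be tested here was Col28a1, a chain known from peripheral nerve in mice. It had 11, 4 and 12 counts in aged GW8510, 2, 2 and 2 in aged vehicle, and 11, 3 and 6 in young vehicle libraries. The authors' deposited table gives it a log2 ratio of 2.32 in aged GW8510 over aged vehicle and does not mark it as significant. Col6a4, an alternative type VI chain, had 11 counts in aged vehicle library 4, 1 count in GW8510 library 1 and none in the other 7 libraries. These genes were picked out after their values were seen.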
